A study of Mus musculus with 15 samples.

Results

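The SLC25 family holds the carriers that move metabolites, nucleotides, cofactors and metal ions across the inner membrane of mitochondria. Its members were taken as every row of the count table with a gene symbol of the form Slc25a followed by a number, which gave 40 of 16154 rows. Of these, 39 are genes and 1 is the pseudogene Slc25a5-ps. A list of 48 family genes was sorted into 6 roles, and the 39 genes were those on the list that the table held. Most carriers exchange 1 substrate for another, so that the set a cell makes helps to decide which metabolites pass between the matrix and the cytosol. In blood stem cells, which rest in a low metabolic state, mitochondria supply energy, one-carbon units and nucleotides as the cells become active, and in the red cell lineage they take in iron for haem. SLC25A51 brings NAD into the matrix, the cofactor for which nicotinamide riboside (NR) is a vitamin precursor.

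RNA was sequenced from haematopoietic stem cells (HSC) of C57BL/6 mice that the labels give as female, with 5 young mice of 6 to 12 weeks, 5 aged mice of 20 to 24 months and 5 aged mice of 20 to 24 months that drank water with NR at 3 mg/ml for 2 months. No mouse carried an engineered allele by the labels, and the young and aged groups received no NR. Each library came from 20000 to 25000 cells of an individual mouse. The comparisons ask which carrier transcripts differ with age and which differ after NR in aged mice.

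Total counts per library ran from 2122221 to 3631395 in young, from 764119 to 13318989 in aged and from 2486399 to 3595384 in NR-treated aged HSC. All 12 HSC marker genes (among them Kit, Procr, Hlf and Mecom) were present in every group, with summed levels of 2584 to 3041, 2934 to 3280 and 2672 to 3449 CPM (counts scaled to library size). Transcripts of other blood cells differed between the groups. The summed level of 14 erythroid genes was 246 to 2963 CPM in young, 3252 to 6738 CPM in aged and 172 to 701 CPM in NR-treated aged libraries, and the sum of the 12 B lineage genes in the table was 110 to 895, 595 to 4329 and 92.9 to 184 CPM. The sum of 12 granulocyte and monocyte genes was 2289 to 3194 CPM in aged and 605 to 999 CPM in NR-treated aged libraries. Young replicate 3 stood apart with 8292 CPM of these genes, against 634 to 1552 CPM in the rest of the young group. The labels call all mice female, yet the sum of 4 Y-linked genes came to 104 CPM in young replicate 1 and to 108 CPM in young replicate 5, against 0.757 to 3.16 CPM in the other 13 libraries. Xist, a transcript of the inactive X chromosome, was also present in both, at 436 and 482 CPM, against 296 to 919 CPM in the other 13. The source of the Y-linked transcripts was not tested. The fits without these 2 libraries and without replicate 3 are given with the results they change. In bulk RNA, fewer cells of a type and less RNA per cell cannot be told apart.

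The family's share of the library totals overlapped between the groups. This share was 0.250% ± 0.0174 (SD, n = 5) in young, 0.272% ± 0.00427 in aged and 0.258% ± 0.0184 in NR-treated aged HSC. With TMM sizes, which the levels of single members use, the summed level was 2206 to 2712 CPM in young and 2754 to 3007 CPM in aged libraries. On that scale every aged library lay above every young one. The NR-treated aged libraries held 2244 to 2760 CPM. Slc25a5, Slc25a3 and Slc25a4, the carriers of adenine nucleotides and phosphate that feed ATP synthesis, held 50.6%, 53.1% and 53.5% of the Slc25 counts in the young, aged and NR-treated aged groups. Divided by the exonic length of each gene, the mean level over the 15 libraries was highest for Slc25a5 at 415 CPM per kb, followed by Slc25a4 at 130.3, Slc25a3 at 69.1, Slc25a11 at 68.5, Slc25a1 at 32.9, Slc25a39 at 28.2 and Slc25a36 at 22.6 CPM per kb. These libraries read the 3′ ends of transcripts, so that counts need not scale with length and this order is only a rough guide. At the low end, 12 members had 3 counts or fewer in at least 1 library, 11 of them in aged replicate 2, the shallowest library. Such values cannot be told from absence by counting error alone.

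Between aged and young HSC, 5 of the 40 members (12.5%) passed the test, against 19.3% of all genes. This share was not above that of the table as a whole. Slc25a37, Slc25a36, Slc25a11 and Slc25a4 were higher in aged HSC, where 9.68% of all genes were called higher, and Slc25a28 was lower, where 9.63% of all genes were called lower. The median log2 fold change was -0.03 over the members and -0.03 over all genes. After NR, 3 of 40 members (7.5%) differed from untreated aged HSC, against 8.07% of all genes. Slc25a37 and Slc25a36 were lower and Slc25a28 was higher, with 4.18% and 3.88% of all genes called in those directions. The median log2 fold change was -0.10 over the members and 0.02 over all genes. At an unadjusted p under 0.05 there were 10 members with age and 7 after NR, against 33.2% and 25.1% of all genes. The 5 aged libraries enter both comparisons, so that the direction in one is not independent of the direction in the other.

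**Figure D1:**
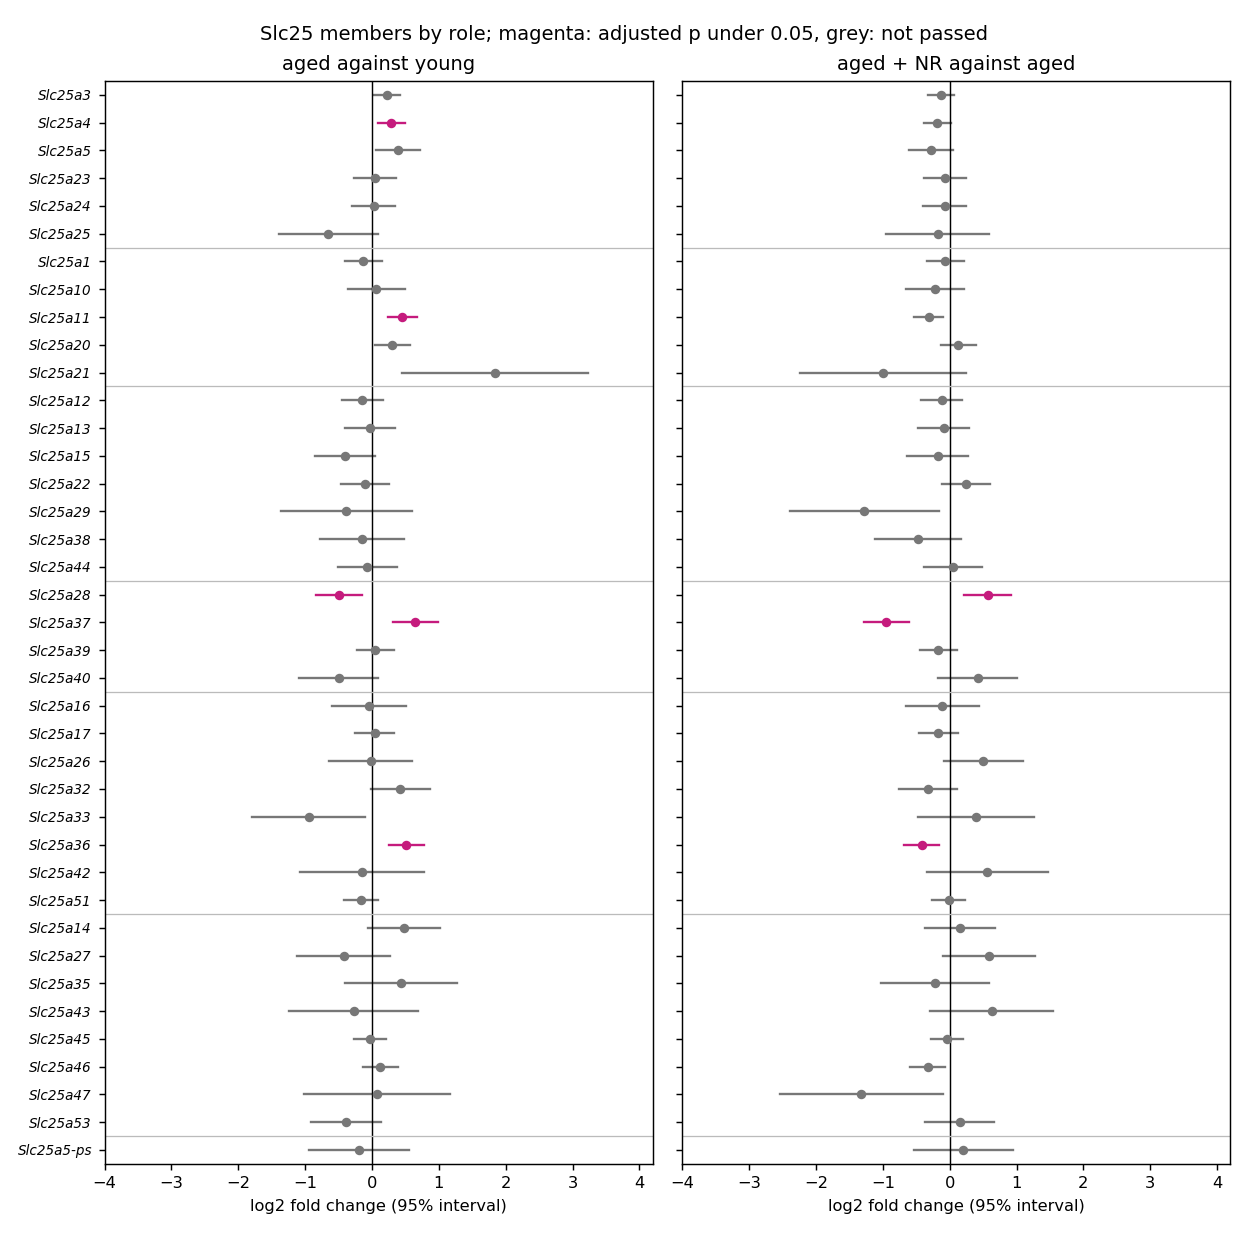
Log2 fold changes (x axis) of 39 of the 40 members (y axis) with 95% intervals from edgeR's quasi-likelihood fit, for aged against young HSC on the left and NR-treated aged against aged HSC on the right. Lines separate, from top to bottom, adenine nucleotides and phosphate, carboxylates and acylcarnitine, amino acids, iron and glutathione, cofactors and other nucleotides, other carriers and the pseudogene. Magenta marks the 5 and 3 members with an adjusted p under 0.05, and intervals are wide where counts were low.

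The sequence upstream of the RefSeq start site was read for 4 of the 5 members that the test called, as a description. No window was at hand for Slc25a37, which was not searched. Windows of 250 bases before the RefSeq start on GRCm38.p6 were at hand for 30 members, in 40 windows. GENCODE places some of these starts further upstream. Its gene models on the minus strand reach 46211284 for Slc25a4 and 97111157 for Slc25a36, so that parts of these windows lie inside the gene. For Slc25a4 this is most of the window and holds all its motif matches. For Slc25a36 all motif matches lie outside the model. For Slc25a11 the model reaches 70647479, and the whole window (chr11:70647040-70647289) lies inside it. The windows of Slc25a28, Slc25a36 and Slc25a4 are printed 5′ to 3′ on the gene's strand, since these members differed in opposite directions with age, with matches to 6 motifs in capitals.
Slc25a28 (chr19:43674882-43675131, minus): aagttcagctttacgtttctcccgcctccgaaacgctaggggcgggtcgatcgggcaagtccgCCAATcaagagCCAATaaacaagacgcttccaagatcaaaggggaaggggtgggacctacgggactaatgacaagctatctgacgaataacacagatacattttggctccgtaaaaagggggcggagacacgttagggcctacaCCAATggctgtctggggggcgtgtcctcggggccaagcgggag
Slc25a36 (chr9:97111042-97111291, minus): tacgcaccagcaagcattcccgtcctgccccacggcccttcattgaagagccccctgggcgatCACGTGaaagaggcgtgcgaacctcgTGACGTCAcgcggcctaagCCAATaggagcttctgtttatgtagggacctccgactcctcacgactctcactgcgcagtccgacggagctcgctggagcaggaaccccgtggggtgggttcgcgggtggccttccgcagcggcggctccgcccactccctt
Slc25a4 (chr8:46211063-46211312, minus): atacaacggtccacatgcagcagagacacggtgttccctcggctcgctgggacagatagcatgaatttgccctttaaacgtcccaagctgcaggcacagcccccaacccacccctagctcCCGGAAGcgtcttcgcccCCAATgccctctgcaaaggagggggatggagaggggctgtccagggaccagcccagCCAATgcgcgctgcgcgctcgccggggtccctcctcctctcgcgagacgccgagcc
The motifs were searched on both strands, and no match overlapped another in these windows. All 3 windows hold the letters CCAAT, with 3 matches for Slc25a28, 1 for Slc25a36 and 2 for Slc25a4, and the window of Slc25a11 holds 1. CCAAT was found in 47.5% of the member windows and in 33.8% of all 32851 windows of this length. The E-box letters CACGTG and the cyclic AMP response element TGACGTCA were in the Slc25a36 window, and were found in 17.5% and 5% of member windows and in 6.02% and 1.55% of all windows. The ETS letters CCGGAAG were in the Slc25a4 window and in 12.5% of member and 6.91% of all windows. The NRF1 motif (2.5% of member and 3.74% of all windows) and the GATA letters AGATAA (5% and 9.99%) were in none of the 4 windows of called members.

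Of the 4 iron and glutathione carriers, the iron carriers Slc25a37 and Slc25a28 passed the test in both comparisons and the glutathione carriers Slc25a39 and Slc25a40 in neither. Slc25a37 encodes mitoferrin 1, which brings iron into mitochondria and is known for its role in red cell precursors. Slc25a28 encodes mitoferrin 2, the related iron importer of most other cells. The gene models lie at chr14:69241848-69285112 and chr19:43663801-43674881 on the minus strand of GRCm38, and both are protein coding.

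Slc25a37 measured 74.4, 96.9, 62.4, 96.5 and 91.4 CPM in the 5 young libraries. In the 5 aged libraries it measured 139, 129.7, 146, 144 and 102 CPM. In the NR-treated aged libraries it measured 48.0, 59.3, 81.3, 88.8 and 67.0 CPM. Each aged library lay above all young and all NR-treated aged libraries, while the latter groups overlapped. The group means were 84.3 ± 15.3, 132 ± 17.9 and 68.9 ± 16.4 CPM (SD, n = 5 each). Expression in aged HSC was 1.57-fold that in young HSC (log2 0.65, SE 0.16, edgeR quasi-likelihood adjusted p = 0.0079), and in NR-treated aged HSC it was 0.518-fold that in aged HSC (log2 -0.95, SE 0.16, edgeR adjusted p = 0.0031). Between NR-treated aged and young HSC the log2 difference was -0.30 with a 95% interval of -0.64 to 0.04. The Slc25a37 calls were kept in every alternative fit and with any 1 library left out.

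Slc25a28 ran the opposite way. It measured 20.7, 26.1, 31.4, 38.1 and 25.6 CPM in young libraries. In aged libraries it measured 25.7, 16.9, 17.8, 21.2 and 17.3 CPM. In NR-treated aged libraries it measured 29.1, 31.0, 32.7, 28.13 and 28.05 CPM. All NR-treated aged libraries lay above all aged ones, whereas young replicates 1 and 5 fell inside the aged range and aged replicates 1 and 4 inside the young range. The log2 fold change was -0.49 (SE 0.17, edgeR adjusted p = 0.044) for aged against young and 0.57 (SE 0.17, edgeR adjusted p = 0.042) for NR-treated aged against aged HSC. Both calls were close to the threshold. Thinning every library to the smallest total ended them (adjusted p = 0.36 and 0.13), and a fit of the 2 groups alone ended the first (0.081). Leaving out any 1 of the aged replicates 2 to 5, or any 1 NR-treated aged replicate, raised the adjusted p of the second to between 0.0505 and 0.112. The first was lost without young replicates 3 (adjusted p = 0.088), 4 (0.15) or 5 (0.055), without aged replicates 2 (0.070), 3 (0.11), 4 (0.058) or 5 (0.11), and without NR-treated aged replicates 4 (0.0508) or 5 (0.0512).

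The balance of the mitoferrins can be read within each library, where it does not depend on scaling. In aged libraries there were 5.39, 7.44, 8.19, 6.79 and 5.90 counts of Slc25a37 for each count of Slc25a28. The ratio was 3.57, 3.69, 1.98, 2.53 and 3.55 in young and 1.65, 1.91, 2.48, 3.14 and 2.38 in NR-treated aged libraries. All 5 aged libraries stood above all 10 others. The ratio was 2.24 times as high in aged as in young HSC (difference of the log2 means 1.16) and 0.338 times as high in NR-treated aged as in aged HSC (-1.56). The exact permutation test (two-sided) gave p = 0.0079 for each, which is the smallest value that 5 libraries against 5 can give, and an adjusted p = 0.071 over the 18 combinations of 6 carrier pairs and 3 comparisons. Neither passed the adjusted threshold, which even the smallest possible p could not pass over the 18 combinations unless more of them shared it. The NR-treated aged and young ratios differed by -0.40 on the log2 scale (exact permutation p = 0.15).

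**Figure D2:**
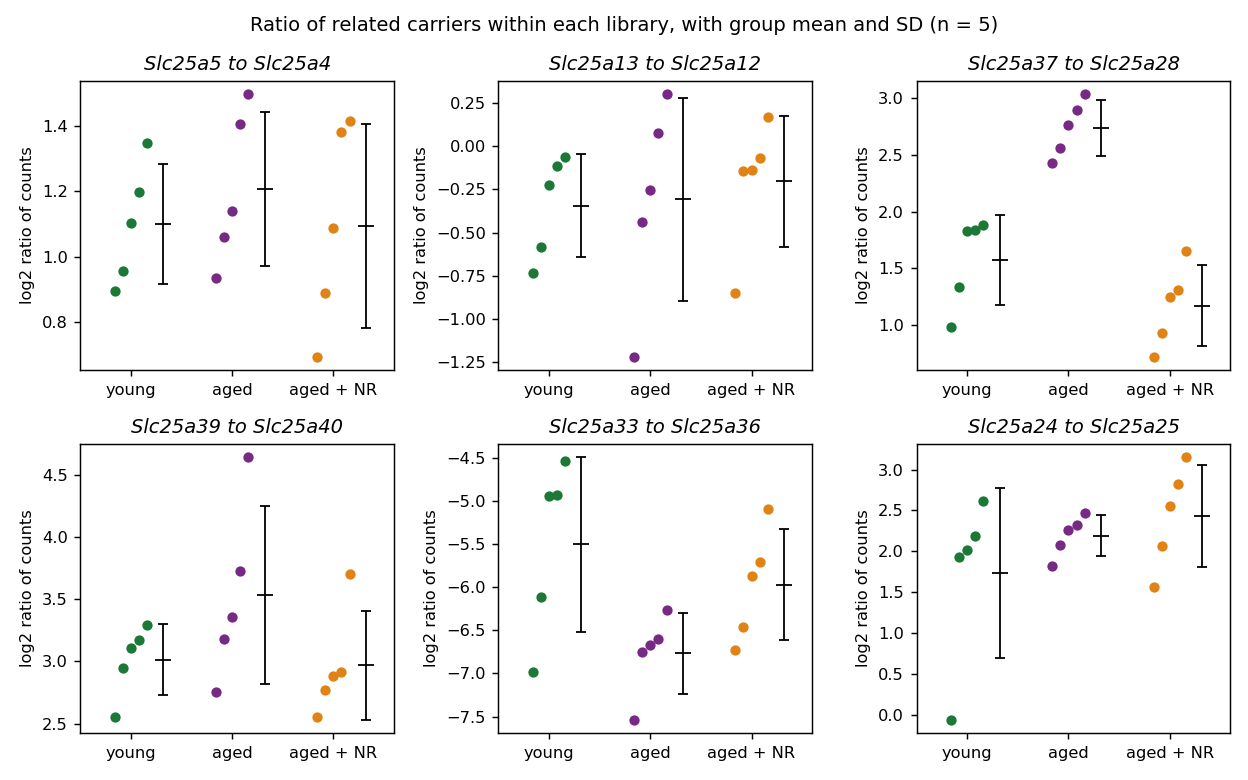
Log2 ratio of the counts of 6 pairs of related carriers (y axis) in each library of the young, aged and NR-treated aged groups (x axis). Points are libraries and bars are the group mean with its SD (n = 5). The 5 aged libraries stand apart in the panel for Slc25a37 to Slc25a28, between 2.43 and 3.03, and the groups overlap in the other 5 panels.

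Erythroid transcripts were highest in the same aged libraries in which Slc25a37 was high, and their part in the Slc25a37 difference was not tested. Among the 14 erythroid genes, the haemoglobin genes Hba-a1, Hba-a2, Hbb-bs and Hbb-bt held most of the sum in aged libraries. Hbb-bs averaged 773, 3003 and 81.9 CPM in young, aged and NR-treated aged HSC. Slc4a1, the anion exchanger of red cells, averaged 9.78, 20.8 and 1.11 CPM and was at 0 in some NR-treated aged libraries. Epor, Rhag, Tfrc and Hemgn passed the test neither with age nor after NR. The other genes of the list were called lower after NR. Within the young group the erythroid sums of replicates 1 to 5 were 959, 246, 2963, 2895 and 907 CPM. Slc25a37 there measured 74.4, 96.9, 62.4, 96.5 and 91.4 CPM. In aged replicates 1 to 5 the sums were 6532, 6738, 3909, 3252 and 4828 CPM. Slc25a37 there measured 139, 129.7, 146, 144 and 102 CPM. In NR-treated aged replicates 1 to 5 the sums were 216, 207, 206, 172 and 701 CPM. Slc25a37 there measured 48.0, 59.3, 81.3, 88.8 and 67.0 CPM. A relation within the groups was not tested. Slc25a39 and Slc25a38, carriers of glutathione and glycine that red cell precursors also use, gave log2 fold changes of 0.05 (95% interval -0.22 to 0.32) and -0.15 (-0.78 to 0.48) in aged against young HSC. After NR both values were negative, at -0.17 (-0.44 to 0.10) and -0.47 (-1.11 to 0.17). Neither member passed the test in either comparison.

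**Figure D3:**
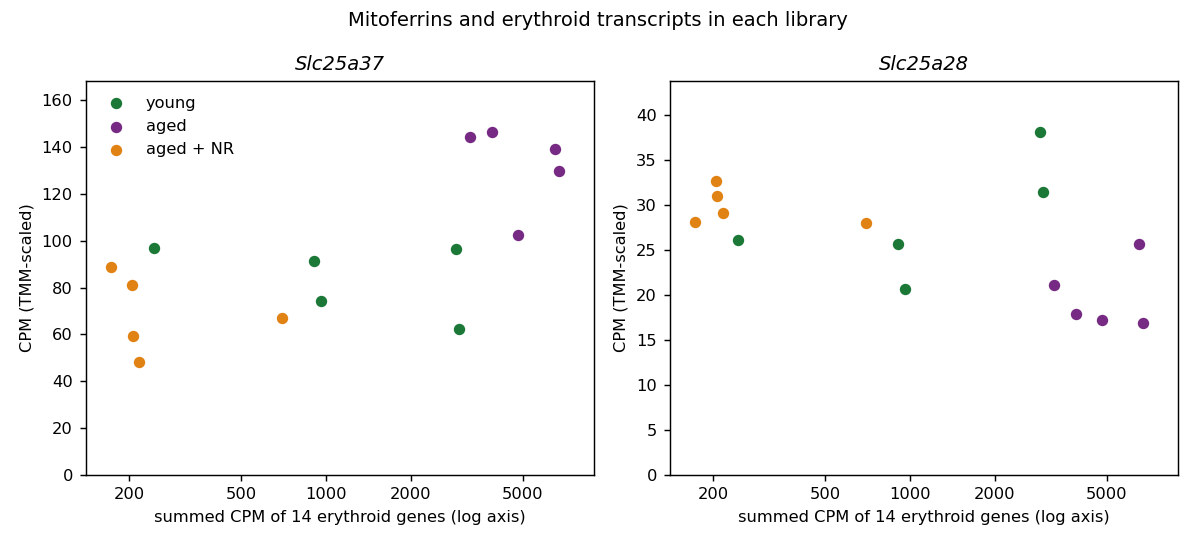
Level of Slc25a37 (left) and Slc25a28 (right) in CPM (y axis) against the summed CPM of 14 erythroid genes on a log axis (x axis), with 1 point per library. The 5 aged libraries have both the highest erythroid sums, from 3252 to 6738 CPM, and the highest Slc25a37 levels. The young libraries span erythroid sums of 246 to 2963 CPM with Slc25a37 between 62.4 and 96.9 CPM. The NR-treated aged libraries span 172 to 701 CPM with Slc25a37 between 48.0 and 88.8 CPM.

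Among the glutathione carriers, Slc25a39 averaged 78.8 ± 7.01, 81.3 ± 9.38 and 72.7 ± 14.04 CPM in young, aged and NR-treated aged HSC. The related Slc25a40 averaged 9.78 ± 2.48, 7.33 ± 2.62 and 9.25 ± 2.34 CPM. The log2 fold changes of Slc25a40 were -0.50 (95% interval -1.09 to 0.10) with age and 0.42 (-0.17 to 1.01) after NR, so that at its depth differences of that size could not be told from none. The ratio of Slc25a39 to Slc25a40 counts overlapped between all groups.

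Of the 9 carriers of cofactors and other nucleotides, Slc25a36, whose upstream window is one of those printed with the motifs, alone passed the test. It encodes a carrier of pyrimidine nucleotides, which mitochondria need to copy and transcribe their DNA, and lies at chr9:97074961-97111157 on the minus strand of GRCm38. It measured 167, 229, 201, 149 and 185 CPM in young libraries and 242, 248, 288, 248 and 302 CPM in aged ones. In NR-treated aged libraries it measured 169, 238, 178, 181 and 227 CPM. The lowest aged library was above the highest library of either other group, by a small margin for NR-treated aged replicate 2. Slc25a36 was 1.43-fold higher in aged than in young HSC (log2 0.51, SE 0.13, edgeR adjusted p = 0.0085) and 0.747-fold in NR-treated aged relative to aged HSC (log2 -0.42, SE 0.13, edgeR adjusted p = 0.047). The age difference was lost only without young replicates 1 and 5 together (adjusted p = 0.062). The difference after NR was also lost with library totals in place of TMM scaling (log2 -0.28, adjusted p = 0.14), with a filter of 10 counts in every library (0.078), with thinned counts (0.11), without young replicates 1 and 5 together (0.062), and without young replicates 1 (0.053) or 5 (0.056), aged replicates 2 (0.055), 3 (0.13), 4 (0.060) or 5 (0.12), or NR-treated aged replicates 1 (0.10), 3 (0.11) or 4 (0.11).

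Slc25a33, the other pyrimidine nucleotide carrier, was scarce. Its levels were 4.42 CPM in young, 2.36 CPM in aged and 3.12 CPM in NR-treated aged HSC, and its log2 fold change with age of -0.95 did not pass (edgeR adjusted p = 0.11). The ratio of Slc25a33 to Slc25a36 counts differed by -1.26 on the log2 scale between aged and young HSC (exact permutation p = 0.063, adjusted p = 0.29).

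Slc25a51, the mitochondrial NAD carrier, measured 64.2, 54.7, 71.0, 63.9 and 56.1 CPM in young libraries. It measured 55.2, 38.9, 65.3, 55.8 and 54.6 CPM in aged libraries and 59.0, 55.4, 54.1, 53.0 and 51.2 CPM in NR-treated aged libraries. The 3 groups overlapped. The log2 fold change was -0.16 with age (95% interval -0.42 to 0.09, edgeR adjusted p = 0.37) and -0.02 after NR (-0.27 to 0.24, edgeR adjusted p = 0.95).

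**Figure D4:**
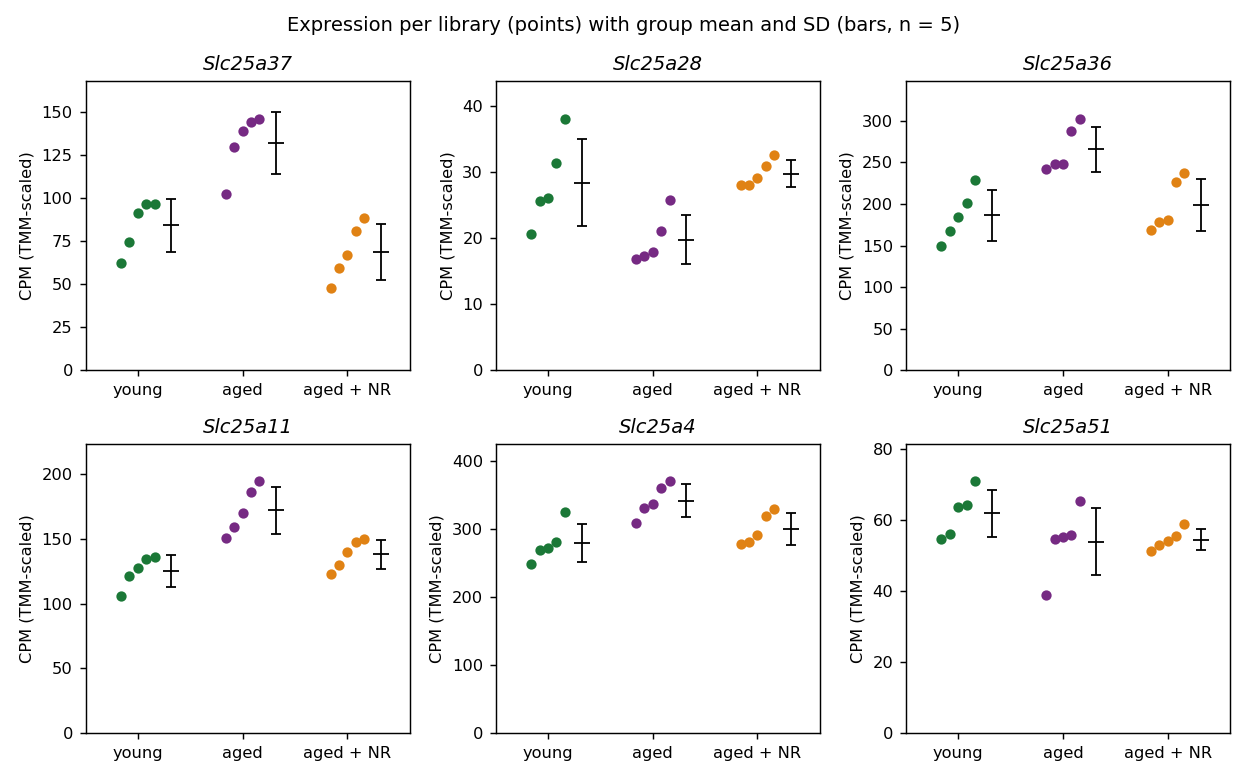
Levels in CPM (y axis) of the 5 members that passed the test and of Slc25a51 in the libraries of the young, aged and NR-treated aged groups (x axis). Points are libraries and bars are the group mean with its SD (n = 5). Slc25a37, Slc25a36 and Slc25a11 show aged libraries above all others, Slc25a28 is lowest on average in aged libraries, and the groups of Slc25a4 and Slc25a51 overlap.

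The remaining carriers of this role did not pass in any comparison. They include Slc25a32, which carries folate or FAD, with 12.0, 15.8 and 12.8 CPM in young, aged and NR-treated aged HSC. Slc25a26 carries S-adenosylmethionine, the methyl donor. Its 5 NR-treated aged libraries (6.54 to 7.75 CPM) lay above its 5 aged ones (4.62 to 5.51 CPM), but at a log2 fold change of 0.50 it did not pass (edgeR adjusted p = 0.28). Groups failed to overlap for 5 members in that comparison and for 8.6% of all genes. In aged against young HSC they failed to overlap for 4 members and for 12.4% of all genes.

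Among the 5 carboxylate and acylcarnitine carriers, Slc25a11 passed in aged against young HSC. Its product exchanges oxoglutarate for malate and is a step of the malate-aspartate shuttle, which brings reducing equivalents of cytosolic NADH into mitochondria. The gene lies at chr11:70644196-70647479 on the minus strand of GRCm38, where Rnf167 overlaps it on the opposite strand. It measured 134, 136, 128, 106 and 122 CPM in young libraries and 150.9, 195, 186, 159.6 and 170.1 CPM in aged ones. In NR-treated aged libraries it measured 139.8, 123, 130.3, 150.1 and 148 CPM. The aged libraries lay above all others, although the gap between the lowest of them and NR-treated aged replicate 4 was under 1 CPM. Slc25a11 was 1.37-fold higher in aged than in young HSC (log2 0.45, SE 0.10, edgeR adjusted p = 0.0052), and this call was kept in every alternative. After NR its log2 fold change of -0.31 (SE 0.10) narrowly missed the threshold (edgeR adjusted p = 0.068), but it was called by DESeq2 (adjusted p = 0.045) and without aged replicate 1 (adjusted p = 0.048).

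Slc25a20 exchanges acylcarnitines for carnitine, the entry of fatty acids into oxidation in the matrix. It averaged 51.6 ± 9.37, 63.2 ± 2.93 and 69.4 ± 8.38 CPM in young, aged and NR-treated aged HSC. Its log2 difference between NR-treated aged and young HSC was the nearest to the threshold of any member in that comparison, at 0.43 (95% interval 0.17 to 0.69, edgeR adjusted p = 0.057). It was called by the likelihood ratio test (adjusted p = 0.045), DESeq2 (0.026), with library totals (0.049), with the filter of 10 counts (0.041), and without young replicates 1 (0.040) or 2 (0.019) or NR-treated aged replicate 1 (0.048). Its log2 fold change with age, 0.30 (adjusted p = 0.098), passed without young replicate 2 (adjusted p = 0.035). The citrate carrier Slc25a1 averaged 76.9 ± 13.1, 69.5 ± 8.40 and 67.0 ± 9.84 CPM. Its log2 fold changes were -0.13 (95% interval -0.41 to 0.15) with age and -0.07 (-0.34 to 0.21) after NR. Slc25a21, a carrier of oxodicarboxylates, had a large but imprecise estimate, a log2 fold change of 1.84 with age that rested on 0.741 and 2.46 CPM and did not pass (edgeR adjusted p = 0.058), with 3 counts or fewer in 7 of 15 libraries.

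The 6 carriers of adenine nucleotides and phosphate all had a negative log2 fold change after NR, from -0.27 to -0.07, and none passed the test. So did 26 of all 40 members have a negative value, and with library totals Slc25a3 turned to 0.0050. With age, 5 of the 6 had a positive log2 fold change, against 18 of all 40 members, and Slc25a4 passed. Slc25a4 and Slc25a5 encode the ADP/ATP carriers ANT1 and ANT2, which send ATP out of the matrix. Slc25a4, at chr8:46206797-46211284 on the minus strand of GRCm38, measured 281, 324, 271, 249 and 269 CPM in young and 330.2, 369.8, 360.4, 309 and 337 CPM in aged libraries. Young replicate 2 fell inside the aged range and the other 4 young libraries below it. The log2 fold change was 0.29 (SE 0.10, edgeR adjusted p = 0.041). The call was lost with library totals (log2 0.17, adjusted p = 0.21), with the likelihood ratio test (adjusted p = 0.054), in the 2-group fit (0.058), with the filter of 10 counts (0.078), with thinned counts (0.081), without young replicates 1 and 5 together (0.15), and without young replicates 1 (0.067), 3 (0.062), 4 (0.10) or 5 (0.086) or aged replicates 1 (0.054), 2 (0.079), 3 (0.10) or 5 (0.069).

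Slc25a5 averaged 605 ± 116, 791 ± 93.7 and 655 ± 161 CPM in young, aged and NR-treated aged HSC, with a log2 fold change with age of 0.39 (95% interval 0.06 to 0.72, edgeR adjusted p = 0.090) that passed with thinned counts (adjusted p = 0.036) and without young replicate 2 (adjusted p = 0.042). Some of its reads could be shared with the pseudogene Slc25a5-ps, which held 2.90, 2.52 and 2.91 CPM. The phosphate carrier Slc25a3 averaged 355 ± 30.1, 415 ± 25.8 and 381 ± 29.3 CPM, with a log2 fold change with age of 0.22 (0.03 to 0.42, edgeR adjusted p = 0.098). The ratio of Slc25a5 to Slc25a4 was 2.14, 2.31 and 2.13 in young, aged and NR-treated aged HSC (geometric means), and the groups overlapped. Of the calcium-regulated ATP-Mg/phosphate carriers, Slc25a23 and Slc25a24 had log2 fold changes of 0.05 and 0.02 with age. Their relative Slc25a25 gave -0.65, where young replicate 2 alone had 29.7 CPM and the other young libraries 6.29 to 11.6 CPM.

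None of the 7 amino acid carriers passed in any comparison. All 7 had a negative log2 fold change with age, between -0.41 and -0.03, and 5 of 7 after NR, against 22 and 26 of all 40 members. The value of Slc25a13 with age was near 0 and reversed in 4 of 15 fits with 1 library left out. Slc25a12 and Slc25a13, the aspartate/glutamate carriers of the malate-aspartate shuttle, averaged 41.0, 38.1 and 34.1 CPM and 32.4, 31.1 and 29.8 CPM in young, aged and NR-treated aged HSC. Their log2 fold changes with age had 95% intervals of -0.45 to 0.17 and -0.40 to 0.35. Slc25a15, the ornithine carrier of the urea cycle, averaged 17.5, 12.8 and 11.5 CPM, and its log2 difference of -0.59 between NR-treated aged and young HSC did not pass (edgeR adjusted p = 0.15). Slc25a38, a glycine carrier needed for the first step of haem synthesis, averaged 9.07, 7.65 and 5.77 CPM.

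The 8 other and less defined carriers did not pass either. Slc25a45 averaged 50.2, 48.3 and 48.0 CPM in young, aged and NR-treated aged HSC. Slc25a46, an outer membrane protein of mitochondrial dynamics, averaged 48.4, 51.9 and 41.9 CPM and had a log2 fold change of -0.33 after NR that did not pass (edgeR adjusted p = 0.11). Slc25a53, on the X chromosome, was lower in each aged library (5.19 to 9.84 CPM) than in any young one (10.5 to 17.3 CPM) but did not pass (log2 -0.39, edgeR adjusted p = 0.29).

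In NR-treated aged against young HSC, none of the 40 members passed edgeR's quasi-likelihood test, against 4.47% of all genes (2.56% higher and 1.91% lower). At an unadjusted p under 0.05 there were 5 members (12.5% of 40, against 18% of all genes), namely Slc25a20 and Slc25a14, which were higher, and Slc25a29, Slc25a15 and Slc25a25, which were lower. The likelihood ratio test called 2 members, DESeq2 called 1 and limma-voom called 0. No member had groups that failed to overlap, against 4.74% of all genes. The 5 members that differed with age gave log2 differences of 0.14 for Slc25a11, 0.09 for Slc25a36, 0.10 for Slc25a4, 0.07 for Slc25a28 and -0.30 for Slc25a37. Their 95% intervals were -0.08 to 0.36, -0.17 to 0.36, -0.10 to 0.30, -0.27 to 0.42 and -0.64 to 0.04. These members were picked for their difference from the same young libraries, so that smaller values here are no independent result.

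Of 45 further genes that work with the carriers, 37 were in the table. These are the uncoupling and MTCH carriers, the chaperones and translocase that insert carriers into the inner membrane, the pyruvate, calcium, sideroflexin and ABC transporters, the outer membrane channels and the malate-aspartate enzymes. In aged HSC 3 were higher and 1 was lower than in young HSC, and after NR 2 were lower and none higher. These are 4 and 2 of 37 genes, shares that were not above the 19.3% and 8.07% of all genes called in the same comparisons. Timm10b, an import chaperone of the intermembrane space, averaged 82.0 ± 9.40, 122 ± 11.2 and 93.6 ± 11.9 CPM in young, aged and NR-treated aged HSC, with log2 fold changes of 0.57 with age (edgeR adjusted p = 0.0019) and -0.37 after NR (edgeR adjusted p = 0.047). Mdh1, the cytosolic malate dehydrogenase that works with the Slc25a11 product in the shuttle, averaged 247 ± 34.2, 318 ± 25.7 and 239 ± 30.3 CPM, with log2 fold changes of 0.37 (edgeR adjusted p = 0.030) and -0.41 (edgeR adjusted p = 0.032). The other listed shuttle enzymes did not pass in either comparison. Their log2 fold changes with age were -0.08 for Got1, -0.31 for Got2 and 0.22 for Mdh2. Mtch2 was higher with age (log2 0.34, edgeR adjusted p = 0.029) and its relative Mtch1 lower (log2 -0.46, edgeR adjusted p = 0.024). The other 17 inner membrane transporters and the 3 outer membrane channels held no call in any comparison.

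The precision of each value followed its depth. Over the members with a mean under 10 CPM the median SE of the log2 fold change with age was 0.36, against 0.17 between 10 and 50 CPM and 0.13 above 50 CPM. All 5 members that passed had a mean above 10 CPM. Reads of Slc25a37 and Slc25a36 could be shared with antisense or uncharacterised transcripts annotated across them, since the strand setting of the counting is not given in the sources used here. The p-values rest on single libraries from individual mice.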

How the data were processed

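HSC from 15 individual mice were sequenced with a 3′ biased protocol and a 10 bp UMI. The authors aligned reads to GRCm38 with STAR 2.4.2a, removed reads with duplicated UMIs, counted exonic reads of GENCODE genes with featureCounts and deposited a filtered table of raw counts per gene, without normalisation. Groups came from the labels. edgeR 4.0.16 in R 4.3.3 was used with TMM sizes, 1 fit of 15 libraries, quasi-likelihood tests and p-values adjusted by Benjamini-Hochberg across 16154 genes, at an adjusted p under 0.05. Fold changes carry SE and 95% intervals. CPM use TMM sizes, and shares use library totals. Counts of 3 or fewer were taken as not told from 0, for counting error only. Pair ratios used 0.5 added counts and exact permutation over 252 arrangements.

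Named members are those called in any comparison and fixed carriers of each role. Others were chosen after their values were seen, and some single values are not reported here. Members, lists and tests were chosen with earlier results of these data known. Alternatives were the likelihood ratio test, DESeq2 1.42.0, limma 3.58.1 (voom), 2-group fits, other scalings, a filter of 10 counts, thinning, the replicate block, and left-out libraries. Tests were checked on simulated data. Positions and lengths came from GENCODE (GRCm38) and upstream sequence from RefSeq (GRCm38.p6), with Python 3.11.15.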

Additional observations from a re-analysis of the deposited data

How the results depend on the processing

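The Slc25a37 calls and the Slc25a11 call with age were kept in all settings. Of 5 members called with age, 3 were called in the 2-group fit, with the replicate block and without young replicates 1 and 5, and 3 to 9 with 1 library left out (9 without young replicate 2). Of 3 called after NR, 1 to 4 were called with 1 library left out. Against young, none was called after NR, but the likelihood ratio test called 2, and DESeq2, library totals and the filter of 10 counts called 1 each, with 0 to 2 when 1 library was left out. The block ended both Slc25a28 calls (adjusted p = 0.063 and 0.057) and the Slc25a4 call (0.066). Numbers did not pair libraries (mean r 0.00666, from -0.252 to 0.137). Library totals moved the median of all genes from -0.03 to -0.16 with age and from 0.02 to 0.16 after NR, and the share of calls that were higher from 50.1% to 29.1% and from 48.1% to 78.4%. That share after NR was 59.3% with the filter of 10 counts. Some values near 0 reversed, none of them called in the comparison concerned, and the cause was not tested. With age, Slc25a39 gave -0.080 with library totals, -0.016 with the filter and -0.14 with thinned counts (-0.022 to 0.085 leaving out 1 library), and Slc25a13 gave 0.13 without young replicates 1 and 5 (-0.11 to 0.053). After NR, library totals gave 0.13 for Slc25a51, 0.0050 for Slc25a3, 0.074 for Slc25a1, 0.017 for Slc25a12 and 0.054 for Slc25a13, the filter gave 0.053 for Slc25a51 and 0.0042 for Slc25a1, thinning gave 0.036 and 0.030, and the block 0.0066 for Slc25a51. Leaving out 1 library gave -0.13 to 0.0018 for Slc25a1 and -0.084 to 0.068 for Slc25a51. Against young, Slc25a28 gave -0.10 and Slc25a13 0.037 without young replicates 1 and 5, and Slc25a28 and Slc25a40 -0.024 to 0.20 and -0.18 to 0.076 without 1 library. The log2 ratio of Slc25a13 to Slc25a12 with age was -0.033 by medians, and that of Slc25a33 to Slc25a36 after NR against young was 0.039 without young replicates 1 and 5. Leaving out 1 library gave -0.12 to 0.26 for Slc25a13 to Slc25a12 with age and after NR, and, against young, -0.23 to 0.056 for Slc25a39 to Slc25a40 and -0.087 to 0.094 for Slc25a5 to Slc25a4. No pair ratio passed in any setting, but with so few libraries the adjustment left little room for any to pass.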
